A study of Homo sapiens with 4 samples.

Results

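The ABC drug efflux transporters were examined as a group of 10 genes, chosen by name from the 26506 genes listed for each cell line: ABCB1, ABCC1, ABCC2, ABCC3, ABCC4, ABCC5, ABCC10, ABCG2, ABCA1 and ABCG1. All 10 were found in both tables. RNA sequencing had been performed on the human ovarian cancer cell lines HeyC2 and SKOV3, with 1 library per condition and 4 in all. The TET1 cells had received 3 μg of the plasmid pCMV6/TET1, in which a viral promoter drives full-length TET1, and the control cells the empty plasmid, and both were kept in 400 μg/ml Geneticin. The control cells are labelled wild-type but had thus also been transfected and selected. Whether a culture was a clone or a pool is not given in the sources used here. TET1 is a dioxygenase that oxidizes 5-methylcytosine in DNA, and the comparison asks which transporter transcripts differed when it was overexpressed. With 1 library per condition, no difference has a replicate check, no test was run and no p-value is given.

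ATP-binding cassette (ABC) transporters are membrane proteins that use ATP hydrolysis to move substrates across a membrane. ABCB1 (P-glycoprotein), ABCG2 (breast cancer resistance protein) and the multidrug resistance proteins of the ABCC subfamily export drugs and drug conjugates, and their expression has long been studied as a source of chemoresistance in ovarian cancer. ABCA1 and ABCG1 export cholesterol and phospholipid to lipoproteins and are classic targets of the liver X receptors (LXR), which sense oxidized sterols.

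The deposited values are FPKM, fragments per length of transcript and size of library, so that levels can be compared between genes. Each TET1 column carried a constant that makes GAPDH equal in TET1 and control cells. It was read from the spacing of the values, since no source used here states it, and was 3.234 for HeyC2 and 1.346 for SKOV3. The TET1 FPKM below were divided by it. The change of a gene is log2((TET1 + 1)/(control + 1)) minus the median of that value over all genes whose FPKM averaged 1 or more in the line, and is called the relative log2 change. The median that was subtracted was 0.06 in HeyC2 and 0.19 in SKOV3. Genes past that filter are said to have risen or fallen where they lay at least 1.5-fold from the median, which is 0.585 on the log2 scale. The lowest values step by whole fragments, which put the depth at an estimated 6754000 to 7574000 fragments per library, and the intervals given for a fold are exact 95% intervals that cover counting error only, on fragments estimated in this way.

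The overexpressed gene itself was low. TET1 was at 0.20 FPKM in the HeyC2 control and 0.52 FPKM in HeyC2 TET1, and at 0.43 and 1.80 FPKM in SKOV3. Its relative log2 change, on the scale defined above, was 0.28 in HeyC2, where it was below the filter, and 0.78 in SKOV3, where it rose. The pseudocount of 1 shrinks changes at such low levels, and it is what puts HeyC2 within 1.5-fold. In SKOV3 the gene passed the filter through its TET1 library alone, and thus had to differ. Neither the HeyC2 nor the SKOV3 label is thus checked by a call of TET1 on this scale. ERBB2, which is amplified in SKOV3 cells, was between 1282 and 1464 FPKM in SKOV3 and between 20.1 and 23.8 FPKM in HeyC2. Of 10 epithelial and ovarian markers, KRT8, KRT18 and PAX8 were high in all libraries, whereas WT1 and MUC16 were at or near 0 in all of them and EPCAM and CDH1 were under 1 FPKM in HeyC2. The keratin KRT7 was at 290 FPKM in the HeyC2 control and 1125 FPKM in HeyC2 TET1, but at 1537 and 22.0 FPKM in SKOV3, and KRT19 was at 0.62 and 1.59 FPKM in HeyC2 and 255 and 0.46 FPKM in SKOV3. The summed level of the 10 was 1292 and 2110 FPKM in HeyC2 and 3919 and 2670 FPKM in SKOV3. The summed level of 8 markers of blood, endothelium, fibroblasts and liver was 19.8 FPKM without and 96.5 FPKM with TET1 in HeyC2, almost all of it CDH5 (18.9 and 94.6 FPKM), and 0.67 and 31.5 FPKM in SKOV3, mostly COL1A1 (0.32 and 27.7 FPKM). CD3E was at 0 in all libraries and PTPRC, PECAM1 and DCN stayed under 0.3 FPKM. The part of these shifts in the results below was not tested. In bulk RNA, fewer expressing cells and less RNA per cell cannot be told apart.

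Promoter sequences are shown for 4 members, because TET1 acts on CpG sites and these genes carry the contrasts described below: ABCA1 and ABCB1 were on opposite sides of the all-gene median in the lines, and ABCC4 and ABCC5 above it in both. Each is the run of 250 bases before a RefSeq transcription start on GRCh38.p14, written 5′ to 3′ on the gene's strand, with CpG dinucleotides in capitals. The ABCA1 window is chr9:104928156-104928405 on the minus strand, the ABCB1 window chr7:87600885-87601134 on the minus strand, the ABCC4 window chr13:95301452-95301701 on the minus strand and the ABCC5 window chr3:184017885-184018134 on the minus strand.
ABCA1: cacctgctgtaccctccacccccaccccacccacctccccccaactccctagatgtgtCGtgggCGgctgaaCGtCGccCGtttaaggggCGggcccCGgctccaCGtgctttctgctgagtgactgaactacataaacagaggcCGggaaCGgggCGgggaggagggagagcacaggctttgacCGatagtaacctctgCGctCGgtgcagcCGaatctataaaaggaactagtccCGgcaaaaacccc
ABCB1: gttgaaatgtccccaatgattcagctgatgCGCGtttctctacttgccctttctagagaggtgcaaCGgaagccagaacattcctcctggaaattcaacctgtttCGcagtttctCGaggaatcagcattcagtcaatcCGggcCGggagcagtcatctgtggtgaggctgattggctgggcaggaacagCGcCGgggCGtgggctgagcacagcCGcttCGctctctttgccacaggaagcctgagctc
ABCC4: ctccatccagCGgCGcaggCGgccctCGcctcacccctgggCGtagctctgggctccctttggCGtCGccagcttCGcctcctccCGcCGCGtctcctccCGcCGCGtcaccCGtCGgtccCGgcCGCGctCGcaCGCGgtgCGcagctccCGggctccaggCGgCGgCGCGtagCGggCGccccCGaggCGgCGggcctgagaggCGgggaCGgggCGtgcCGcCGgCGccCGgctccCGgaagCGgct
ABCC5: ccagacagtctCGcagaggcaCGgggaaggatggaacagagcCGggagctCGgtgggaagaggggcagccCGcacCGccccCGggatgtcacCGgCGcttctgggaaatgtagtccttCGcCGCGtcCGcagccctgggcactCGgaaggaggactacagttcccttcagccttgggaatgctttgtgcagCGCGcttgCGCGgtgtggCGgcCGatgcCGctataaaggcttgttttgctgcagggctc
ABCC4 had the densest window, with 42 CpG, a number that 1.38% of 35116 RefSeq windows of this length reach. The ABCC5 window held 21 CpG (reached by 30.2% of windows), the ABCA1 window 16 (41.0%) and the ABCB1 window 12 (48.5%), and the median over all windows was 11. ABCB1 has a second RefSeq start with 1 CpG in its window, and the FPKM do not say which start was used. Searched on both strands, the GC box GGGCGG, which 42.6% of windows hold, was found 3 times for ABCA1, once for ABCC5 and not for ABCB1 or ABCC4. The CCAAT box CCAAT, held by 32% of windows, was found only for ABCB1 among the members searched. The antioxidant response core TGACNNNGC (10.9% of windows) was found for ABCC4 and for the earlier of 2 ABCC10 starts. The E-box CACGTG (6.34% of windows) was in 4 of 13 member windows, that of ABCA1 included, but 2 of the 4 are overlapping ABCG2 windows that share a single match. Of the LXR element, only the exact direct repeat of AGGTCA with 4 bases between was searched. It was in 5 of all 35116 windows and in 0 of the 13 of members. So rare a string cannot say whether a member carries an LXR element, since repeats with changed letters were not searched. The remaining member windows held between 1 and 32 CpG, with 1 for ABCC2 and the highest number for 1 of 5 ABCG2 starts. RefSeq windows were matched for 7 of the 10 members, and ABCC1, ABCC3 and ABCG1 had no entry in the table. A match is a match of letters, and methylation was not measured in these files.

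In the control cells the ABCC subfamily made up most of the transporter message. ABCC1 had the highest level in both lines, at 18.77 FPKM in the HeyC2 control and 37.25 FPKM in the SKOV3 control, where it was 46.8% of the summed level of the 10 genes. In HeyC2 it was followed by ABCC5, ABCC3, ABCA1, ABCC4, ABCC10, ABCB1, ABCG2, ABCC2 and ABCG1, the last listed at 0. In SKOV3 the order was ABCC1, ABCC3, ABCC4, ABCC5, ABCC10, ABCA1, ABCC2, ABCG2, ABCG1 and ABCB1. Neighbours in these orders can be closer than counting error: ABCC3 (10.12 FPKM) and ABCA1 (9.74 FPKM) in HeyC2 and ABCC4 (9.65 FPKM) and ABCC5 (9.54 FPKM) in SKOV3 cannot be ranked from 1 library each. The classical drug pumps ABCB1 and ABCG2 were low, between 0.09 and 1.76 FPKM in the control libraries.

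Between the control libraries, 6 members averaged 1 FPKM or more. ABCA1 was higher in HeyC2 (9.74 against 1.96 FPKM, a ratio of 4.97), and ABCC1 and ABCC4 were higher in SKOV3, with FPKM ratios of 1.98 and 2.11. Over all genes, 29.0% were at least 1.5-fold higher in HeyC2 and 28.6% in SKOV3 relative to the median of that comparison, so that 1 and 2 of 6 members is near the background. ABCB1, below the filter, was at 1.76 FPKM in the HeyC2 control and 0.09 FPKM in the SKOV3 control.

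**Figure D1:**
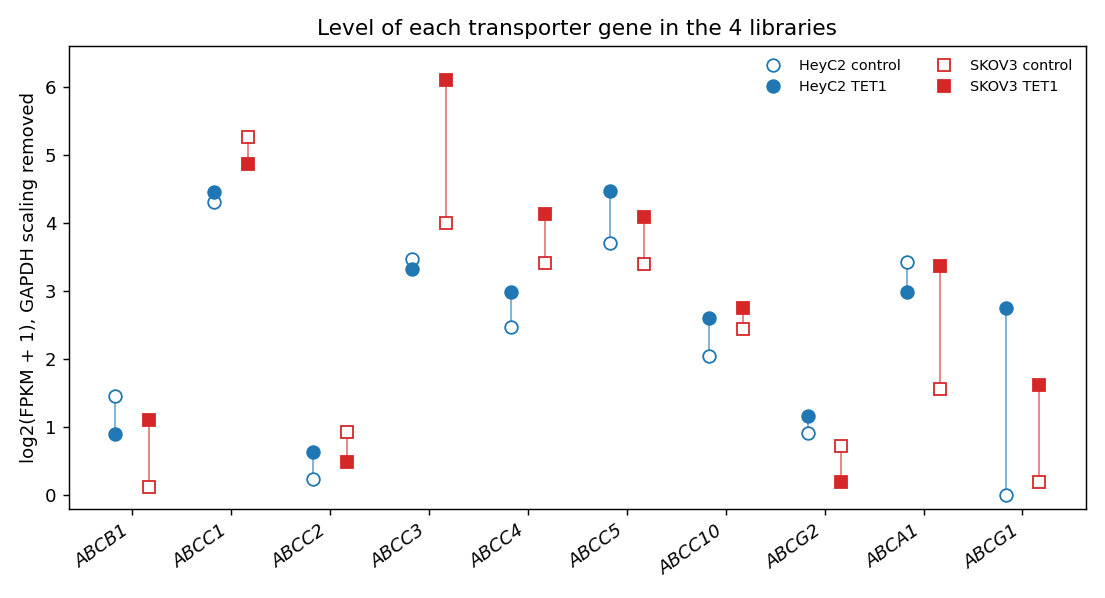
Level of each of the 10 transporter genes as log2(FPKM + 1), with the GAPDH scaling removed. Each point is 1 library, circles are HeyC2 and squares SKOV3, open symbols are control and filled symbols TET1, and a line joins the pair of 1 cell line. ABCC3 in SKOV3 and ABCG1 in HeyC2 show the longest lines, and ABCB1, ABCC1, ABCC2, ABCC3, ABCG2 and ABCA1 run in opposite directions in the lines.

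In HeyC2, ABCC5 and ABCG1 rose and ABCB1 fell relative to all genes. That is 2 of the 9 members that passed the filter rising and 1 falling, where 12.5% of 11894 genes rose and 9.17% fell (21.7% in either direction). The median relative log2 change of the 9 was 0.19. In SKOV3, ABCC3, ABCA1 and ABCG1 rose, 3 of the 7 members that passed the filter, and 0 fell, where 20.7% of 13013 genes rose and 18.2% fell (38.8% in either direction). The median there was 0.53. ABCG1 passed the filter through its TET1 libraries alone, in both lines, and thus had to differ. With so few members, these shares are a description of the libraries and set nothing apart for the group.

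Among the sterol exporters, ABCG1 (GRCh37, chromosome 21, 43619799 to 43717354, plus strand) was the member that rose in both lines. In HeyC2 it was listed at 0 in the control and was at 5.73 FPKM in TET1, about 109 estimated fragments. The SKOV3 control was at 0.15 FPKM and SKOV3 TET1 at 2.09 FPKM, about 3 and 39 fragments. Both control libraries were near 0 and both TET1 libraries above 2 FPKM, and it was through the latter that the gene passed the filter. The relative fold in SKOV3 was 12.0 (3.84 to 61.1). No fold is given in HeyC2, where the control was listed at 0, and its relative log2 change of 2.69 is set by the pseudocount of 1. Of 111 ribosomal protein and proteasome genes, 0 were listed at 0 in any library, which does not check a listed 0 for a gene of low level. In the HeyC2 control, 11344 of the 26506 genes were listed at 0. Over the 11134 genes past the filter in both lines, 3.56% rose in both and 2.54% fell in both, against 1 and 0 members.

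ABCA1 (chromosome 9, 107543287 to 107690436, minus strand), which loads cholesterol onto apolipoprotein A-I, went opposite ways. The SKOV3 levels were 1.96 FPKM in the control and 9.37 FPKM in TET1, a relative fold of 4.12 (3.43 to 4.95). In HeyC2 it was at 9.74 FPKM in the control and 6.95 FPKM in TET1, a relative fold of 0.682 (0.607 to 0.765). The relative log2 changes were 1.62 and -0.49, and only that of SKOV3 was past 1.5-fold. The HeyC2 control, HeyC2 TET1 and SKOV3 TET1 libraries were within 6.95 to 9.74 FPKM, and the SKOV3 control was the low one. The difference between the lines was not tested.

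The drug pump ABCB1 (chromosome 7, 87132333 to 87342639, minus strand), which exports taxanes and anthracyclines, was at 1.76 FPKM in the HeyC2 control and 0.87 FPKM in HeyC2 TET1. It fell 2.12-fold relative to all genes, a relative fold of 0.471 (0.296 to 0.735), on about 67 and 30 fragments. In SKOV3 it was at 0.09 FPKM in the control and 1.16 FPKM in TET1, about 3 and 39 fragments, a relative fold of 11.1 (3.84 to 61.1), but with a mean of 0.625 FPKM it was below the filter. The TET1 libraries of both lines were thus near 1 FPKM, while the controls lay above and below.

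ABCG2 (chromosome 4, 89011302 to 89152780, minus strand), which exports topotecan and mitoxantrone, was at 0.89 FPKM in the HeyC2 control and 1.24 FPKM in TET1. Its relative fold of 1.33 had a counting interval from 0.776 to 2.28, which includes no change. In SKOV3, below the filter, it was at 0.66 FPKM in the control and 0.15 FPKM in TET1, about 19 and 4 fragments, with a relative fold of 0.194 (0.0484 to 0.589). No library had ABCG2 above 1.24 FPKM.

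Of the multidrug resistance proteins, ABCC3 (chromosome 17, 48712138 to 48769614, plus strand), which exports bile salts and glucuronides, showed the largest difference of any member in FPKM. Its SKOV3 levels were 15 FPKM in the control and 67.85 FPKM in TET1, about 600 and 2517 fragments. The relative fold was 3.90 (3.56 to 4.27), and 97.9% of all genes tested had a lower relative change. In HeyC2 it was at 10.12 and 8.97 FPKM, a relative fold of 0.847 (0.732 to 0.979). The SKOV3 TET1 library stood alone, and the other 3 lay between 8.97 and 15 FPKM.

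ABCC1 (chromosome 16, 16042995 to 16237114, plus strand), which exports glutathione conjugates and anthracyclines, was nearly level in HeyC2, at 18.77 FPKM in the control and 20.89 FPKM in TET1 (relative fold 1.06, 0.969 to 1.17). In SKOV3 it was at 37.25 and 28.28 FPKM, a relative log2 change of -0.58, just inside the threshold. Without the pseudocount its relative fold was 0.654 (0.607 to 0.705), just outside it. Both SKOV3 libraries were above both HeyC2 libraries.

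ABCC5 (chromosome 3, 183637722 to 183735727, minus strand) and ABCC4 (chromosome 13, 95672089 to 95953729, minus strand) export cyclic nucleotides, and both were above the all-gene median in both lines. ABCC5 was at 12.10 FPKM in the HeyC2 control and 21.20 FPKM in TET1, and rose with a relative fold of 1.67 (1.5 to 1.87). In SKOV3 it was at 9.54 and 16.08 FPKM, a relative fold of 1.45 (1.28 to 1.66). For both lines the TET1 library was the higher, and the counting intervals of the relative folds overlapped.
The ABCC4 levels were 4.57 FPKM without and 6.92 FPKM with TET1 in HeyC2, with a relative fold of 1.45 (1.2 to 1.74), and 9.65 and 16.53 FPKM in SKOV3, with 1.48 (1.3 to 1.68). Its relative log2 changes of 0.45 and 0.53 fell short of 0.585 in both lines. ABCC5 and ABCC4 were thus close to each other and to the threshold, with ABCC5 in HeyC2 past it. With the filter at a mean of 5 FPKM, which moves the all-gene median, both were past it in SKOV3 and ABCG1 was not counted in either line.

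ABCC10 (chromosome 6, 43395104 to 43418165, plus strand), which exports docetaxel, was at 3.15 FPKM in the HeyC2 control and 5.06 FPKM in TET1. The relative fold was 1.53 (1.2 to 1.96), and the relative log2 change with the pseudocount was 0.49. In SKOV3 it was at 4.44 and 5.76 FPKM, with a relative fold of 1.12 (0.901 to 1.39). DLK2, on the opposite strand, shares exon sequence with ABCC10 and was at 0.31 and 1.43 FPKM in HeyC2 and 3.27 and 9.69 FPKM in SKOV3. Reads of the pair cannot be told apart unless strand was used, which the sources used here do not state.
ABCC2 (chromosome 10, 101542397 to 101612351, plus strand), the apical pump that carries conjugates into bile, was under 1 FPKM in all libraries. It was at 0.18 and 0.56 FPKM in HeyC2 and 0.91 and 0.40 FPKM in SKOV3, between about 8 and 37 fragments, and did not pass the filter in either line. The relative folds were 2.97 (1.24 to 7.51) and 0.380 (0.192 to 0.703).

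**Figure D2:**
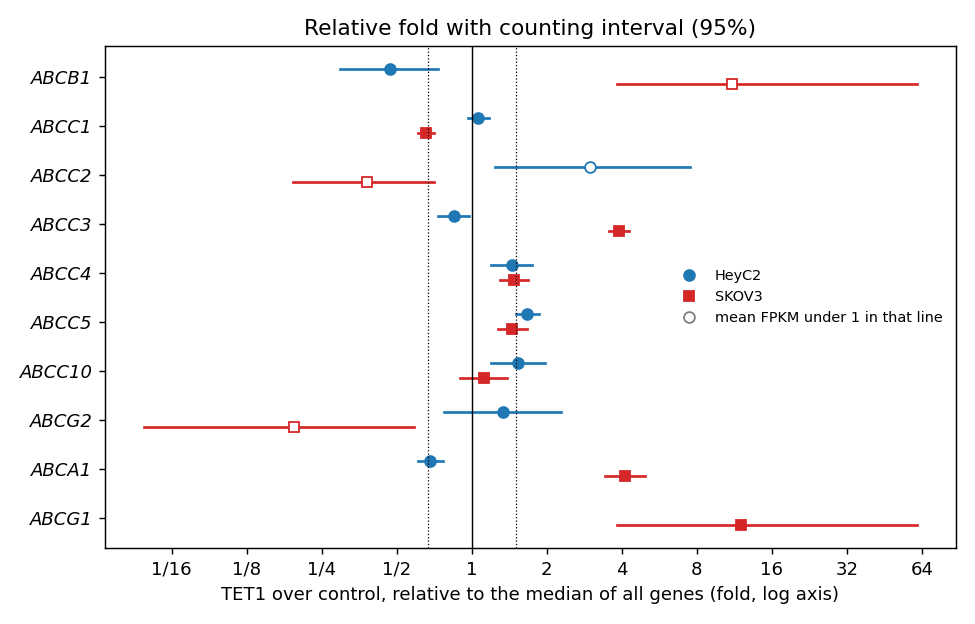
Fold of TET1 over control relative to the median of all genes, without a pseudocount, on a log axis, for each member in HeyC2 (circles) and SKOV3 (squares). Bars are exact 95% intervals of counting error, open symbols are genes with a mean FPKM under 1 in that line, and dotted lines mark 1.5-fold. ABCC3 and ABCA1 in SKOV3 lie near 4-fold with narrow bars, ABCB1 and ABCG1 in SKOV3 have wide bars from 3.84 to 61.1, and ABCG1 in HeyC2 is not drawn because its control was listed at 0.

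The makeup of the transporter message shifted more in SKOV3 than in HeyC2, as values of single libraries. This was not particular to the transporters, since 38.8% of all genes tested were past 1.5-fold in SKOV3 and 21.7% in HeyC2. The summed level of the 10 genes was 61.28 FPKM in the HeyC2 control and 78.39 FPKM in HeyC2 TET1, and 79.65 and 147.66 FPKM in SKOV3. In SKOV3 the share of ABCC1 was 46.8% in the control and 19.1% in TET1, and that of ABCC3 18.8% and 45.9%. In HeyC2 the share of ABCC1 was 30.6% and 26.7%. The highest members in HeyC2 TET1, ABCC5 (21.20 FPKM) and ABCC1 (20.89 FPKM), were too close to be ranked from 1 library. In the control cells of each line 4 members reached 5 FPKM, and with TET1 7 did so in HeyC2 and 6 in SKOV3. ABCC10 only just reached it in HeyC2 TET1, at 5.06 FPKM. These counts use plain FPKM, not taken relative to the all-gene median. The share of all genes that reach 5 FPKM is not given, so that they say nothing particular to the transporters.

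**Figure D3:**
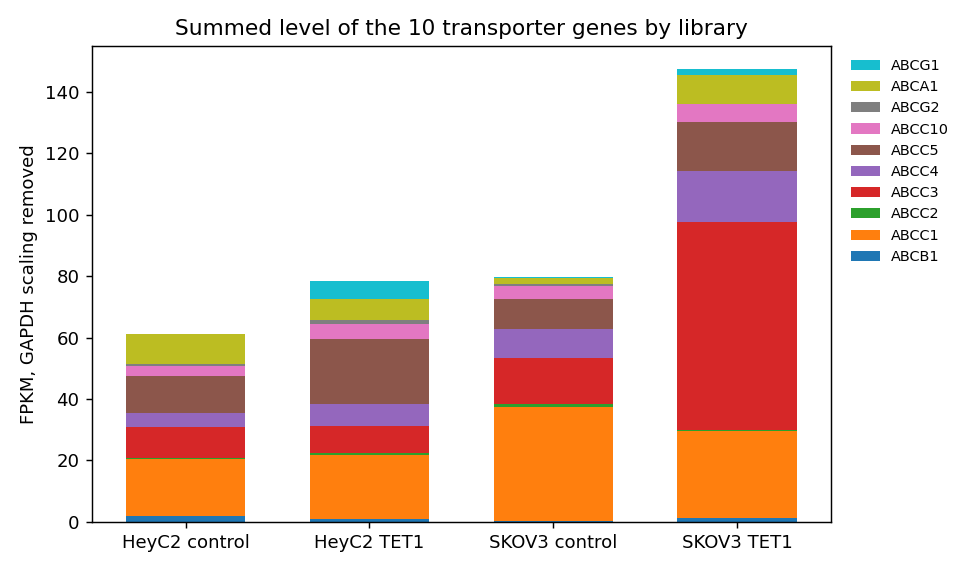
Summed FPKM of the 10 transporter genes in each library, with the GAPDH scaling removed, stacked by gene. The SKOV3 TET1 bar reaches 147.66 FPKM, of which ABCC3 is 45.9%, and the other 3 bars lie between 61.28 and 79.65 FPKM.

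Compared across the lines, 3 of the 7 members past the filter in both had relative changes of opposite sign, ABCC1, ABCC3 and ABCA1, against 44.9% of 11134 genes. None of the 7 was past 1.5-fold in opposite directions (0 of 7), which 3.15% of all genes were. Among the 25 ABC genes, members included, that passed in both lines, the gene nearest to ABCC3 in its pair of relative log2 changes was ABCA1 and the reverse (distance 0.405), ABCC5 was nearest to ABCC4 (0.254), ABCC4 to ABCA2 (0.172), ABCC1 to ABCD3 (0.124) and ABCC10 to ABCF3 (0.0877). The gene nearest to ABCG1 was ABCA3, at a distance of 1.82. That distance rests on the HeyC2 value of ABCG1, which the pseudocount sets. ABCG1 also passed the filter through its TET1 libraries alone, so that the distance does not set it apart. Likeness here rests on 2 values per gene.

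**Figure D4:**
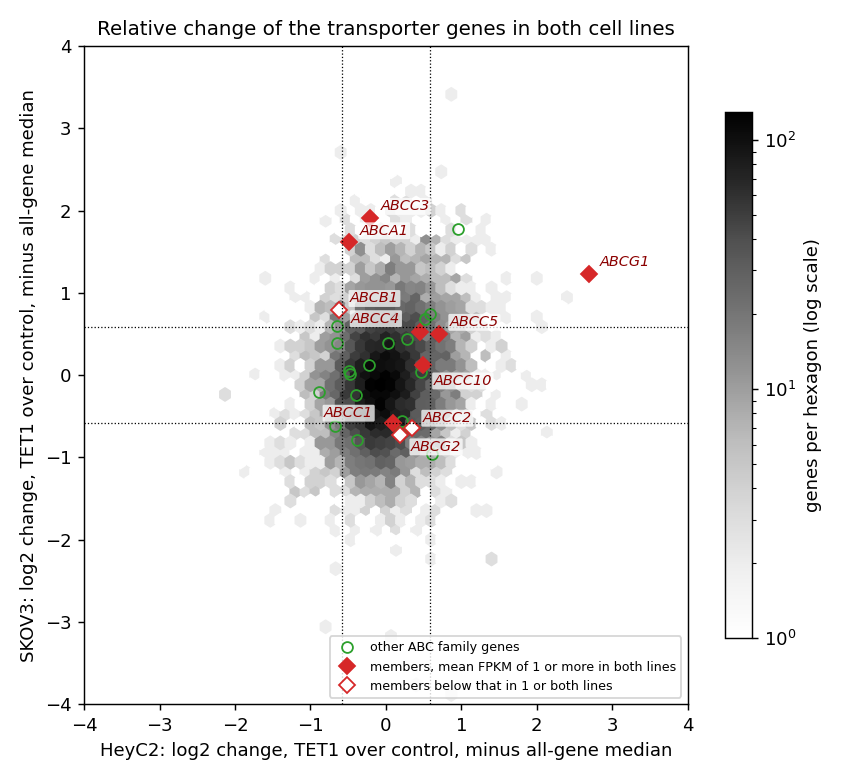
Relative log2 change in HeyC2 (horizontal) and SKOV3 (vertical) for all 11134 genes past the filter in both lines (grey hexagons, shaded on a log scale), the 18 other ABC genes among them (green circles) and the 10 members (red diamonds, open where the mean FPKM was under 1 in either line). Dotted lines mark 1.5-fold. ABCG1 lies at the far right at 2.69 and 1.23, ABCC3 and ABCA1 at the top left of centre, and the other members within or near the dense cloud. The HeyC2 value of ABCG1 is set by the pseudocount of 1.

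The lists below are described by their counts, to be read against the all-gene shares of 12.5% rising and 9.17% falling in HeyC2 and of 20.7% and 18.2% in SKOV3, and no difference between lists or lines was tested. The highest and lowest genes of a list are those by mean relative change among genes past the filter in both lines. Where 1 library of a line was well under 1 FPKM, a gene passed the filter through the other alone and had to differ. Among the genes named below that rose, ABCA3 in HeyC2 and GSTA4 and GLI1 in SKOV3 are such genes. Further ones, not named, are counted as rising in SKOV3 among the other ABC genes, the glutathione genes and the SLC carriers. The all-gene shares count such genes too. The 38 other ABC family genes included 18 past the filter in HeyC2 and 20 in SKOV3. In HeyC2, 3 rose and 4 fell (16.7% and 22.2%), with a median relative log2 change of -0.10, and in SKOV3, 6 rose and 4 fell (30.0% and 20.0%), with a median of 0.09. The highest over both lines were ABCA3, a phospholipid transporter of lung surfactant, at 0.42 and 1.87 FPKM in HeyC2 and 7.86 and 33.67 FPKM in SKOV3, and ABCA7, at 5.98 and 9.90 FPKM and 5.11 and 10.70 FPKM. The lowest were TAP2, a peptide transporter of antigen presentation, at 13.83 and 8.69 FPKM in HeyC2 and 23.43 and 17.22 FPKM in SKOV3, and ABCF1, a translation factor that pumps nothing, at 17.14 and 13.50 FPKM and 43.08 and 28.07 FPKM.

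The LXR axis and its targets, 13 genes beside ABCA1 and ABCG1, gave small counts. In HeyC2, 2 of 11 rose and 2 fell (18.2% each, against 12.5% and 9.17% of all genes). In SKOV3, 5 of 13 rose and 1 fell (38.5% and 7.69%, against 20.7% and 18.2%). The median relative log2 changes were -0.16 and 0.36. The list mixes receptors and cofactors with targets, so that these are not counts of targets. The sterol regulator SREBF1 was at 27.04 and 40.97 FPKM in HeyC2 and 19.23 and 57.65 FPKM in SKOV3, where it rose. MYLIP, which marks the LDL receptor for degradation, was at 2.66 and 5.33 FPKM in HeyC2 and 4.61 and 13.19 FPKM in SKOV3, and rose in both. Among the lowest was LPCAT3, a phospholipid acyltransferase, at 34.9 and 23.1 FPKM in HeyC2, where it fell, and 17.9 and 17.7 FPKM in SKOV3.

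NRF2, the oxidant-sensing factor known to drive several ABCC genes, its inhibitor KEAP1 and its targets lay mostly below the all-gene median, 11 of 14 in HeyC2 and 13 of 14 in SKOV3. Of those 14, 1 rose and 5 fell in HeyC2 (35.7%, against 9.17% of all genes) and 1 rose and 7 fell in SKOV3 (against 18.2%), with medians of -0.41 and -0.52. The cystine carrier SLC7A11 was at 7.44 and 1.54 FPKM in HeyC2 and 34.37 and 12.51 FPKM in SKOV3, and thioredoxin reductase TXNRD1 at 168 and 64.1 FPKM and 145 and 70.6 FPKM. The heme-degrading enzyme HMOX1 rose in both lines, from 16.90 to 28.15 FPKM and from 8.64 to 19.57 FPKM. SRXN1, at 10.74 and 15.15 FPKM and 50.80 and 47.08 FPKM, was within 1.5-fold in both.

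The genes that make and use glutathione, with which many ABCC substrates are conjugated, gave 0 of 14 higher and 3 lower in HeyC2 (0% and 21.4%, against 12.5% and 9.17% of all genes). In SKOV3, 5 of 18 rose and 2 fell (27.8% and 11.1%, against 20.7% and 18.2%), with medians of -0.24 and 0.30. Among those that passed in both lines, the highest were CHAC1, which degrades glutathione, at 3.49 and 1.70 FPKM in HeyC2 and 2.84 and 46.03 FPKM in SKOV3, and GSTA4, at 1.61 and 2.65 FPKM and 0.12 and 2.95 FPKM. The lowest were MGST1, at 90.5 and 70.1 FPKM and 23.2 and 10.1 FPKM, and GSTO1, at 203 and 118 FPKM and 96.3 and 95.8 FPKM.

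The xenobiotic receptor NR1I2, which induces ABCB1 in liver, was at 0 in all 4 libraries, and of the 10 genes of its list 3 could be called in HeyC2 and 4 in SKOV3, with 0 past 1.5-fold in each. AHR was at 5.73 and 5.38 FPKM in HeyC2 and 6.45 and 10.74 FPKM in SKOV3. All 8 copper and platinum transport genes passed in both lines, 0 rose and 1 fell in each, the copper chaperone ATOX1 (159 and 108 FPKM in HeyC2, 61.6 and 46.1 FPKM in SKOV3). The copper importer SLC31A1, which also admits cisplatin, was at 17.90 and 15.70 FPKM in HeyC2 and 15.13 and 14.59 FPKM in SKOV3.

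Drug uptake carriers of the SLC families gave 3 of 8 higher and 1 lower in HeyC2 and 2 of 10 higher and 2 lower in SKOV3. The SKOV3 shares, 20.0% each way, are at the background of 20.7% and 18.2%, and the HeyC2 shares of 37.5% and 12.5%, against 12.5% and 9.17%, rest on 8 genes. The organic anion carrier SLCO1B3 fell in both lines, from 22.76 to 9.38 FPKM and from 10.31 to 6.97 FPKM. The nucleoside carrier SLC29A1 rose in HeyC2, from 17.16 to 31.38 FPKM, and was at 44.92 and 41.75 FPKM in SKOV3. SLCO4A1 was at 55.1 and 265 FPKM in HeyC2 and 43.0 and 7.03 FPKM in SKOV3. SLC22A18, an organic cation carrier, was at 5.81 and 4.76 FPKM and 2.55 and 10.26 FPKM.

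Regulators and targets linked to multidrug resistance gave 1 of 12 higher and 1 lower in HeyC2 and 1 of 13 higher and 5 lower in SKOV3. The shares in HeyC2, 8.33% each way, stand against 12.5% and 9.17% of all genes, and those in SKOV3, 7.69% and 38.5%, against 20.7% and 18.2%. The gene that rose was EPAS1 in HeyC2 (16.25 to 26.11 FPKM) and GLI1 in SKOV3 (0.12 to 11.75 FPKM), both named after their values were seen. GLI1 passed the filter in SKOV3 through its TET1 library alone, and thus had to differ. Topoisomerase TOP2A, the target of anthracyclines and a proliferation gene, fell in both lines, from 35.89 to 14.32 FPKM and from 242 to 132 FPKM, and NFKB1 fell in SKOV3, from 16.78 to 5.75 FPKM, and was at 13.19 and 9.67 FPKM in HeyC2. Of the genes past the filter in both lines, the highest by mean change, neither of them past 1.5-fold, were TOP2B, at 27.35 and 26.39 FPKM and 27.24 and 42.33 FPKM, and HIF1A, at 60.04 and 51.46 FPKM and 242 and 351 FPKM.
Genes that anchor and traffic efflux pumps gave 1 of 8 higher and 0 lower in HeyC2 and 0 of 10 higher and 5 lower in SKOV3 (all-gene shares 12.5% and 9.17%, and 20.7% and 18.2%), with medians of 0.08 and -0.58. Ezrin, EZR, which ties membrane pumps to actin, was at 76.98 and 84.26 FPKM in HeyC2 and fell from 527 to 179 FPKM in SKOV3. Its partner SLC9A3R2 was at 39.99 and 44.45 FPKM in HeyC2 and fell from 86.5 to 33.5 FPKM in SKOV3, and these were the lowest of the list. The highest were RAB11A, at 18.14 and 15.19 FPKM in HeyC2 and 19.78 and 23.40 FPKM in SKOV3, and RDX, at 27.6 and 40.4 FPKM in HeyC2, which fell from 58.8 to 39.8 FPKM in SKOV3. The gene that rose in HeyC2 was CAV1 (125 to 200.09 FPKM), which fell in SKOV3 (178 to 64.8 FPKM) and was named after its values were seen.

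**Figure D5:**
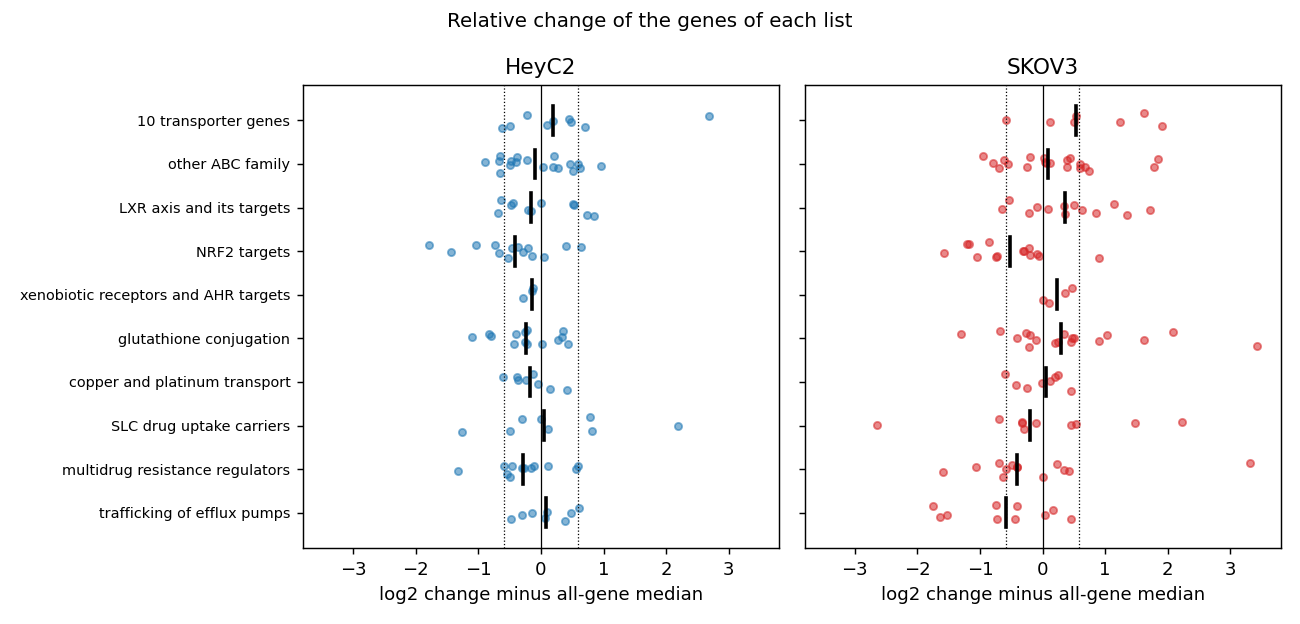
Relative log2 change of each gene that passed the filter, by gene list, in HeyC2 (left) and SKOV3 (right), with black bars at the list medians and dotted lines at 1.5-fold. The transporter genes have medians of 0.19 and 0.53, NRF2 targets of -0.41 and -0.52, and trafficking genes of 0.08 and -0.58. Vertical scatter within a list has no meaning.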

How the data were processed

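RNA was sequenced in paired-end reads from TruSeq libraries. Per the labels, the authors aligned the reads to hg19 with Bowtie2 2.2.6 and made FPKM with RSEM 1.2.17, and they deposited FPKM for 26506 genes per cell line. The annotation and read totals are not given in the sources used here. The constant on each TET1 column was recovered as the largest ratio of control GAPDH to a GAPDH value on the 0.01 FPKM grid that places every distinct value below 40 FPKM on the scaled grid. Division by it before the pseudocount of 1 keeps genes of low FPKM comparable.

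Each line was compared within its own table, with no test, since each condition has 1 library. Fragments were estimated as FPKM times the length of the canonical GENCODE 44 transcript on GRCh37 less 200 bases, times the estimated depth. The depth estimate depends on the length subtracted, and the cultures behind the libraries may vary more than counting does. The calculations were tested on simulated data.

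Genes outside the members were named as the 2 highest and 2 lowest of each list by mean relative change among genes past the filter in both lines. In lists of up to 8 genes any gene could be named. Some genes of the lists are not reported here. NR1I2, EPAS1, GLI1, CAV1, ABCB10 and the neighbours of members were named after their values were seen. The members and lists were chosen with earlier results of these data known. The alternatives were pseudocounts of 0.1 and 0.01, FPKM as deposited, TPM, upper-quartile centring, no filter, a mean FPKM of at least 5, and thresholds of 2-fold and 1.2-fold. Python 3.11.15, numpy 2.4.6, pandas 2.3.3, scipy 1.17.1 and matplotlib 3.10.9 were used.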

Additional observations from a re-analysis of the deposited data

Results flagged for a closer look

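The 210 genes looked at were the 10 transporter genes, the list genes reported here, the markers, TET1 and the neighbours of members. Of these, 7 passed the filter in both lines and moved past 1.5-fold in opposite directions. Of the 7 transporter genes past the filter in both lines, 0 did so. Over all genes past the filter in both lines, 351 of 11134 (3.15%) did. The 210 genes include many below the filter, so that 7 of 210 cannot be set against that share. ABCB1 was at -0.62 in HeyC2 and 0.79 in SKOV3, but was below the filter in SKOV3 and was not counted. The values below are relative log2 changes. The epithelial keratins moved most, KRT7 with 1.90 in HeyC2 and -6.26 in SKOV3, and KRT19 with 0.62 and -7.65. The values of CHAC1, which degrades glutathione, were -0.79 and 3.42 in the same order, and the organic anion carrier SLCO4A1 was at 2.19 and -2.65. Caveolin, CAV1, was at 0.61 and -1.64, the hypoxia factor EPAS1 at 0.59 and -0.64, and the mitochondrial transporter ABCB10 at 0.62 and -0.96. Each rests on 1 library per condition, and none of the differences was tested.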

How the results depend on the processing

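No paired analysis was possible because the labels give no replicate numbers and each condition has 1 library per line, and for the same reason no replicate could be left out. A comparison of TET1 with control that takes the lines as a block was not run. The number of members that rose in HeyC2 (2) was 1 at a mean FPKM of at least 5 and at 2-fold. It was 4 at 1.2-fold and 3 with pseudocounts of 0.1 and 0.01, where ABCC10 was added. The share of all genes that rose in HeyC2 moved too. It was 11.6% at a mean FPKM of at least 5, 4.11% at 2-fold and 27.8% at 1.2-fold. With the pseudocounts of 0.1 and 0.01 it was 15.3% and 15.6%. The number that fell in HeyC2 (1) was 0 at a mean FPKM of at least 5 and at 2-fold, and 2 at 1.2-fold. Of all genes, 7.86%, 2.82% and 26.3% fell under these settings. The number that rose in SKOV3 (3) was 5 with upper-quartile centring and at 1.2-fold. It was 4 at a mean FPKM of at least 5 (ABCC3, ABCC4, ABCC5 and ABCA1, without ABCG1). With TPM and without a filter it was also 4, with ABCB1 added, which fell in HeyC2 under the same settings. Of all genes, 28.0% rose in SKOV3 with upper-quartile centring and 34.8% at 1.2-fold. The share was 18.7% at a mean FPKM of at least 5, 23.6% with TPM and 18.1% without a filter. The number that fell in SKOV3 (0) was 1 with pseudocounts of 0.1 and 0.01 and at 1.2-fold, each time ABCC1. It was 2 with TPM and without a filter. Of all genes, 20.3% and 20.5% fell in SKOV3 with the pseudocounts of 0.1 and 0.01. The share was 34.1% at 1.2-fold, 20.2% with TPM and 14.6% without a filter. In the control libraries the number higher in HeyC2 (1) was 2 with pseudocounts of 0.1 and 0.01 and 3 with TPM.
Low members moved with the pseudocount. The relative log2 changes at 0.1 and 0.01 were 5.80 and 9.10 for ABCG1 in HeyC2 (3.62 with TPM), 2.92 and 3.50 for ABCG1 in SKOV3, 2.52 and 3.33 for ABCB1 in SKOV3, and -1.83 and -2.29 for ABCG2 in SKOV3. ABCC2 was at 1.17 and 1.52 in HeyC2, where it was at -0.36 with FPKM as deposited, and at -1.38 with 0.01 in SKOV3. No member past 1.5-fold changed sign under the alternatives run. The list medians that moved were all in SKOV3: NRF2 targets (-0.29 without a filter), xenobiotic receptors and AHR targets (0.40 with upper-quartile centring, -0.01 with TPM, -0.10 without a filter) and copper and platinum transport (0.24 with upper-quartile centring, -0.15 at a mean FPKM of at least 5). The cause of these changes was not tested, apart from the thresholds and filters, which change which genes are counted. Depth limits ABCB1, ABCC2, ABCG2 and ABCG1, which rest on fewer than 40 estimated fragments in at least 1 library per line.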

Other observations

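The genes beside the members were listed by position on GRCh37, 5 on each side, and those named here were chosen after their values were seen. Beside ABCG1 on chromosome 21, the genes TFF3, TFF2, TFF1, TMPRSS3 and UBASH3A were at 0 in all 4 libraries and UMODL1 was at 0.09 FPKM or less, so that ABCG1 was the only gene of those listed between ZBTB21 and UBASH3A above 1 FPKM in the TET1 libraries. Beside ABCB1 on chromosome 7, ABCB4, its nearest paralog, stayed at 0.08 FPKM or less. TP53TG1 was at 1.83 FPKM in the SKOV3 control and 12.84 FPKM in SKOV3 TET1 (11.37 and 13.73 FPKM in HeyC2). RUNDC3B, whose span overlaps that of ABCB1, was at 0.36 and 1.73 FPKM in SKOV3. Beside ABCC3 on chromosome 17, SPATA20 was at 10.97 and 39.54 FPKM in SKOV3 and 36.72 and 35.18 FPKM in HeyC2, while ANKRD40 on the other side was at 22.55 and 21.20 FPKM in SKOV3. None of these differences was tested.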
